A study of Rattus norvegicus with 2 samples.

Results

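The genes described here are the interleukins and their receptors, taken from a per-transcript expression table of rat H9c2 cells as every row whose gene symbol begins with Il and a digit. Such symbols numbered 73, on 78 transcripts, and 18 of them were measured, meaning that the sum over the gene's transcripts was 1 FPKM or higher in 1 or both libraries. FPKM counts sequenced fragments, scaled to the transcript's length and to the depth of the library. The 18 stand against 9539 measured genes among the 16783 symbols of the whole table. They comprise 13 receptor chains, 4 ligands and 1 soluble binding protein, Il18bp. One of the 13 chains, Il28ra, carries an interleukin name but is a chain of the receptor for lambda interferons.

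H9c2 is a cell line started from the myocardium of an embryonic rat of strain BD1X. One library came from cells transfected with a Cacnb4 plasmid and 1 from cells transfected with the vector alone. Cacnb4 encodes beta4, an auxiliary subunit of calcium channels that open with voltage. No further treatment, time or genotype is stated. Each group held 1 library, so no difference below has a replicate check, no test of the conditions was possible, and every ratio describes this pair of libraries. Mapped reads came to 13035096 of 16925364 in the Cacnb4 library and to 11582102 of 15258174 in the empty vector library. If FPKM was scaled to the mapped reads, 1 FPKM stands for about 13.0 reads per kilobase of transcript in the Cacnb4 library and 11.6 in the empty vector library. The transfected gene, Cacnb4, had 6266 FPKM in the Cacnb4 library, against 4.37 FPKM in the empty vector library, which fits the labels.

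The cell type was checked by its markers. Of 11 skeletal myoblast markers in the table, 9 were measured, led among transcription factors by Myod1 at 101 FPKM in the Cacnb4 library and 89.8 FPKM in the empty vector library. Of 10 cardiomyocyte markers, 2 were measured, Gata4 and Tnni3, while Myl2 and Nppa were under 0.1 FPKM in both libraries. Leukocytes are the usual source of many interleukins. Of 17 leukocyte markers in the table, 1 was measured, Cd14, at 9.61 FPKM in the Cacnb4 library and 8.76 FPKM in the empty vector library. Their summed level was 12.7 FPKM in the Cacnb4 library and 11.8 FPKM in the empty vector library. The pan-leukocyte marker Ptprc was at 0.0846 FPKM in the Cacnb4 library and 0.0191 FPKM in the empty vector library, and the macrophage marker Emr1 was listed at 0 in both. Of 7 endothelial markers, Egfl7 was the 1 measured, at 12.7 FPKM in the Cacnb4 library and 14.1 FPKM in the empty vector library. These are bulk values, in which fewer cells of a type and less RNA per cell cannot be told apart.

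Interleukins are secreted proteins by which cells of the immune system and of solid tissues signal to each other. Most act through receptors built from a chain that recognises the ligand and a chain shared with other interleukins, and the shared chains fall into families: the gp130 group around Il6st, the common gamma chain group around Il2rg, and the interleukin 10, interleukin 1 and interleukin 17 groups. Chains of the first 3 groups signal through Janus kinases and Stat factors, and those of the interleukin 1 and 17 groups through adaptors that lead to NF-kappa B. Muscle cells are known to release interleukin 6 and interleukin 15.

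Of 37 receptor symbols in the table, 13 were measured, at levels from about 1 FPKM for Il27ra to over 50 FPKM for Il6st, and of these 0 were at 2-fold. Of 35 ligand symbols 4 were measured, among them the gene with the highest ratio, Il15. Throughout, the log2 ratio is log2((FPKM Cacnb4 + 1)/(FPKM empty vector + 1)), a gene is called 2-fold higher or lower at 1 or more or at -1 or less on that scale, while a factor given in times is the plain quotient of FPKM. The added 1 FPKM makes the ratios of low genes smaller. By this rule 1 of the 18 genes was higher, where 1.94% of all measured genes were higher, and 0 of the 18 were lower, where 1.08% of all measured genes were lower. The log2 ratio was above 0 for 13 of the 18, where it was above 0 for 44.6% of all measured genes. The median log2 ratio was 0.16 for the 13 receptors and 0.26 for the 4 ligands, beside -0.03 over all measured genes. Since the genes of a family can be regulated together, these counts are a description.

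**Figure D1:**
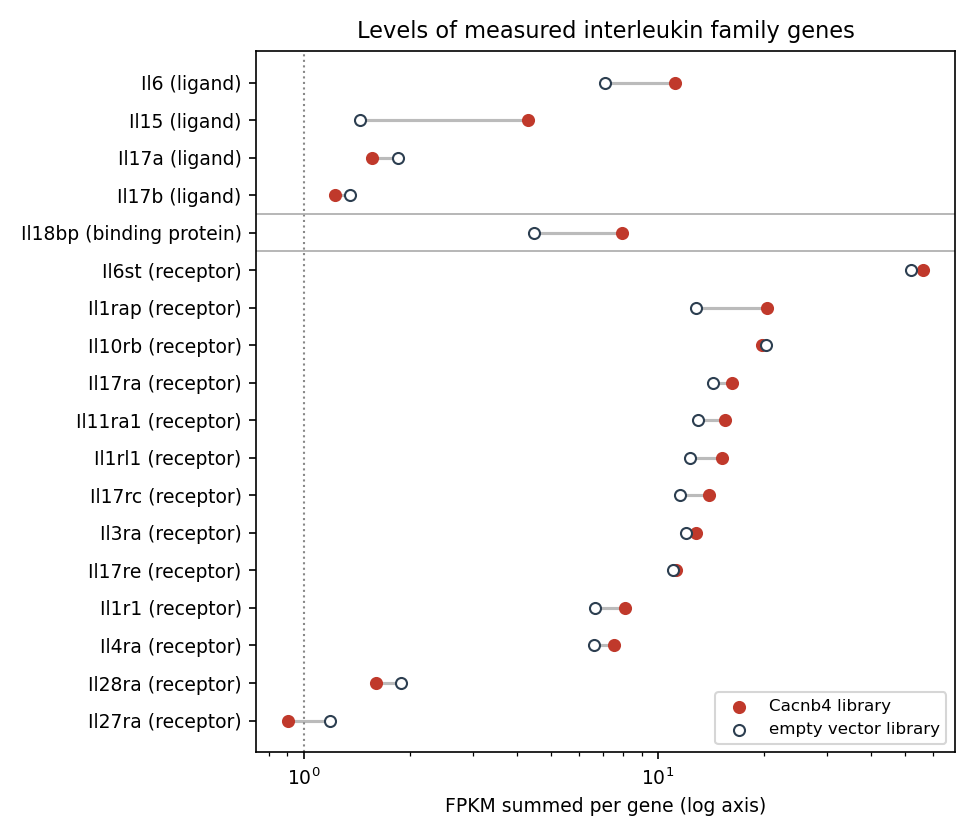
Level of each of the 18 measured interleukin family genes, in FPKM on a log axis, with 1 point for the Cacnb4 library (filled) and 1 for the empty vector library (open), ordered within ligands, binding protein and receptors. Il6st is the highest gene, at 56.1 FPKM in the Cacnb4 library and 51.8 FPKM in the empty vector library, and Il15 has the widest gap, with 4.31 FPKM in the Cacnb4 library and 1.44 FPKM in the empty vector library.

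Among the ligands, Il15, a cytokine that sustains natural killer and memory T cells, was at 4.31 FPKM in the Cacnb4 library and 1.44 FPKM in the empty vector library. The quotient was 2.99 and the log2 ratio 1.12, which made Il15 the only 1 of the 18 at 2-fold. The values correspond to about 56.2 reads per kilobase of transcript in the Cacnb4 library and 16.7 in the empty vector library. Among measured genes ordered from the highest level, Il15 took place 7658 in the Cacnb4 library and 9040 in the empty vector library, so it was among the lower measured genes in both. With 5 FPKM added in place of 1, the log2 ratio was 0.53 and the gene no longer reached 2-fold. The authors' deposited table gave the Il15 transcript a p-value of 0.0408 and a q-value of 0.624, and did not mark it as significant. Of the transcripts of all measured genes, 3.29% had a p-value under 0.05 in the authors' deposited table. Of the 23 transcripts of the 18 genes, 1 did, that of Il15. The table places Il15 at chr19:27487267-27498973 in rn4, and no other transcript overlaps it. The common gamma chain Il2rg, which binds Il15, was at 0.160 FPKM in the Cacnb4 library and 0.339 FPKM in the empty vector library. Of the other chains that bind Il15, neither Il15ra nor Il2rb is among the 73 interleukin family symbols in the table.

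Il6, the cytokine of the acute phase response that contracting muscle also secretes, was the ligand with the highest level. It was at 11.2 FPKM in the Cacnb4 library and 7.10 FPKM in the empty vector library, a quotient of 1.58 and a log2 ratio of 0.59. The authors' deposited table gave it a p-value of 0.569. Its locus in the table spans 750 kb, from 336442 to 1086773 on chromosome 4 in rn4, and is shared with Dnajb6 and LOC498592, so reads can be split between these genes. Dnajb6, a chaperone, was there at 53.3 and 16.6 FPKM in its 2 transcripts in the Cacnb4 library, against 48.8 and 15.8 FPKM in the empty vector library.

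The other measured ligands belong to the interleukin 17 family and were slightly lower in the Cacnb4 library. Il17a, the cytokine for which T helper 17 cells are named, was at 1.56 FPKM in the Cacnb4 library and 1.85 FPKM in the empty vector library. Il17b was at 1.23 FPKM in the Cacnb4 library and 1.35 FPKM in the empty vector library. Both are near the threshold, and their log2 ratios were -0.16 and -0.08. Il17f, the neighbour of Il17a on chromosome 9 at a distance of 49.5 kb, was under the threshold at 0.260 FPKM in the Cacnb4 library and 0.415 FPKM in the empty vector library.

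Il18bp, a secreted protein that binds interleukin 18 and keeps it from its receptor, had the second highest log2 ratio of the family, 0.71. It was at 7.93 FPKM in the Cacnb4 library and 4.46 FPKM in the empty vector library, 1.78 times as much, and so under 2-fold. The authors' deposited table gave it a p-value of 0.0733 and a q-value of 0.750. The table lists it as 1 transcript at chr1:159471688-159473728 in rn4. The cytokine it binds, Il18, was at 0.124 FPKM in the Cacnb4 library and 0.260 FPKM in the empty vector library. Il18r1, a chain of the receptor for interleukin 18, was at 0.360 FPKM in the Cacnb4 library and 0.178 FPKM in the empty vector library. The inhibitor was thus measured without its ligand and without this receptor chain reaching 1 FPKM.

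In the interleukin 1 receptor family, 3 chains were measured. Il1rap, the accessory protein that joins the receptors for interleukin 1 and interleukin 33, was at 20.4 FPKM in the Cacnb4 library and 12.8 FPKM in the empty vector library. The quotient was 1.59 and the log2 ratio 0.63, the highest of the 13 receptors on summed transcripts. With the highest transcript of each gene alone, the log2 ratio was 0.38 for Il1rap and 0.50 for Il1rl1, which then stood first. Il1r1, the signalling receptor for interleukin 1, was at 8.10 FPKM in the Cacnb4 library and 6.65 FPKM in the empty vector library. Il1rl1, also called ST2 and the receptor for interleukin 33, was at 15.2 FPKM in the Cacnb4 library and 12.3 FPKM in the empty vector library. Their ligands were all under 1 FPKM: Il33 was at 0.233 FPKM in the Cacnb4 library and 0.211 FPKM in the empty vector library, and Il1a and Il1b were under 0.15 FPKM in both. Il1r1 and Il1rl1 lie on chromosome 9 with other receptor genes of this family. The 5 that the table lists there under an interleukin name span 380 kb, from 39279396 to 39659828 in rn4. The other 3 of these 5, Il1r2, Il1rl2 and Il18r1, were under 0.5 FPKM in both libraries.

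Il1rap and Il1rl1 are each split over 3 transcripts in the table. Both genes are known to give membrane-bound and soluble forms, but the table does not say which transcript encodes which form. For Il1rap, transcript TCONS_00007278 was at 8.80 FPKM in the Cacnb4 library and 4.33 FPKM in the empty vector library, 2.03 times as much. Transcript TCONS_00007279 of the same gene was at 11.4 FPKM in the Cacnb4 library and 8.52 FPKM in the empty vector library, 1.34 times as much. The share of the gene's FPKM held by the first of these was 43.1% in the Cacnb4 library and 33.7% in the empty vector library. The authors' deposited table gave TCONS_00007278 a p-value of 0.0505 and a q-value of 0.671. The third transcript, which was under 0.25 FPKM in both libraries, had a p-value of 0.828 there. For TCONS_00007279 the listed value can stand for a missing one, so no p-value is given and the 2 main transcripts cannot be compared by it.

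For Il1rl1, 1 transcript went the other way from the rest. TCONS_00030328 was at 0.533 FPKM in the Cacnb4 library and 2.37 FPKM in the empty vector library, with a log2 ratio of -1.14. TCONS_00030330 was at 11.1 FPKM in the Cacnb4 library and 7.54 FPKM in the empty vector library, and TCONS_00030329 was at 3.60 FPKM in the Cacnb4 library and 2.43 FPKM in the empty vector library. The lower transcript held 3.50% of the gene's FPKM in the Cacnb4 library and 19.2% in the empty vector library. The authors' deposited table gave the 3 transcripts p-values of 0.295, 0.138 and 0.597 in that order. How the program divided reads among transcripts of 1 gene enters these values, and its part in them was not tested.

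**Figure D2:**
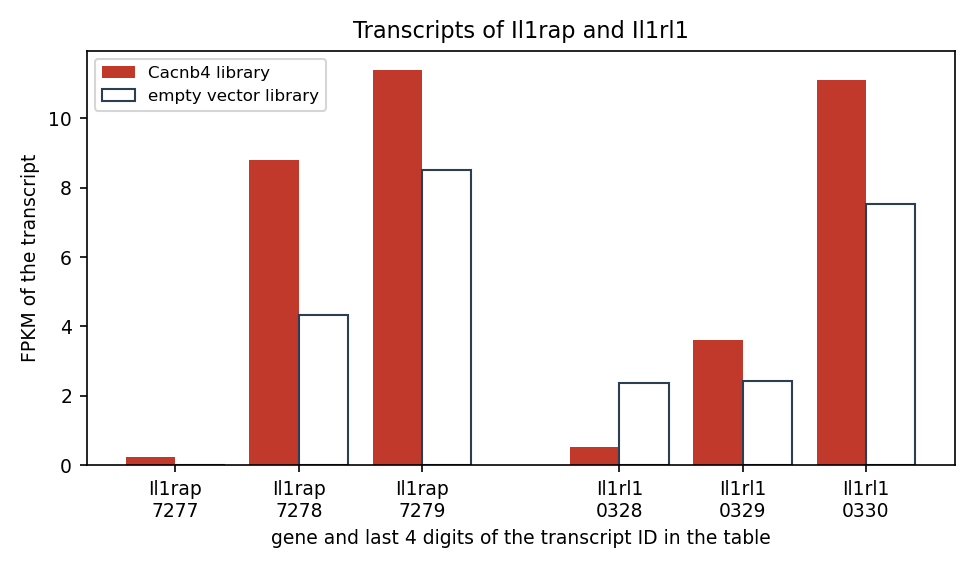
FPKM of each transcript of Il1rap and Il1rl1, with the Cacnb4 library as filled bars and the empty vector library as open bars, and the last 4 digits of the transcript's ID below. Of the Il1rl1 transcripts, the one ending in 0328 is lower in the Cacnb4 library, at 0.533 FPKM, than in the empty vector library, at 2.37 FPKM, and the other 2 are higher.

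The sequence around the start of the genes with the 3 largest log2 ratios, Il15, Il18bp and Il1rap, is shown because genes that respond to interferon often carry an interferon-stimulated response element (ISRE) there. The windows are RefSeq's, on build GRCr8, and run from 250 bases before to 50 bases after an annotated start site, in the direction of the gene. The Il15 window is chr19:42544456-42544755 on the plus strand and lies inside the RefSeq gene, which begins at 42536160. The Il18bp window is chr1:165786906-165787205 on the minus strand and also lies inside the RefSeq gene, whose outer start on that strand is at 165787990. The Il1rap window is chr11:87704293-87704592 on the minus strand and spans the gene's outer start, at 87704346. Capitals mark a match to the ISRE core.
Il15: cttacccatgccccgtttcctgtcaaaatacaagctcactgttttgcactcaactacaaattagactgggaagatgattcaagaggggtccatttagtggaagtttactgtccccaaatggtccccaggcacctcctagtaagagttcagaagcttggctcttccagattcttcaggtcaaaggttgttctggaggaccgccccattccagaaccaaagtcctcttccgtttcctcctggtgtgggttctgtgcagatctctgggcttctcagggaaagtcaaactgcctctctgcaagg
Il18bp: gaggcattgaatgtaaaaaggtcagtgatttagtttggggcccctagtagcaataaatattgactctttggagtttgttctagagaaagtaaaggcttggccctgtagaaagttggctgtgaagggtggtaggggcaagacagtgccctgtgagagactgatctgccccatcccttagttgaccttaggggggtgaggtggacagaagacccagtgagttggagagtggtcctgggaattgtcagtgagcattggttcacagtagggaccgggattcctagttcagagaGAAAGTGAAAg
Il1rap: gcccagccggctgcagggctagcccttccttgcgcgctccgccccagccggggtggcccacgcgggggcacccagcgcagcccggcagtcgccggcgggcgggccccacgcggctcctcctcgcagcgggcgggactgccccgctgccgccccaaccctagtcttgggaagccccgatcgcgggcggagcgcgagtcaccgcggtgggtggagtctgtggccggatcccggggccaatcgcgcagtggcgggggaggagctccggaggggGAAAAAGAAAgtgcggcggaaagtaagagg

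The ISRE core was searched as GAAA, any 2 bases and GAAA, and GAS, the element bound by Stat dimers, as TTCNNNGAA, both on either strand. Il18bp held the ISRE core as GAAAGTGAAA from base 40 of the transcript, counting the start site as base 1. Il1rap held it as GAAAAAGAAA from base 21, and a second RefSeq window of this gene, which overlaps the first, places the same letters 61 bases before its start site. The Il15 window held neither motif, which says only that these letters are absent from these 300 bases. Of the 18 genes, all matched a RefSeq symbol or synonym and 15 had a window. The ISRE core was in the windows of 3 of the 15, the third being Il6st, 239 bases before the start site on the opposite strand. GAS was in 1 of the 15, Il10rb, as TTCCGGGAA from 6 bases before the start site, and no window held both motifs. Over all 33469 RefSeq windows, 3.92% held the ISRE core and 8.87% held GAS. These are shares of windows, while the counts out of 15 are of genes, and a gene can have more than 1 window. Il6st and Il10rb, which hold a motif, had log2 ratios of 0.11 and -0.04. A match is a run of letters and not evidence of a bound factor.

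The gp130 group centres on Il6st, the signal-transducing chain for interleukins 6, 11 and 27 and for Lif and oncostatin M. It was the highest interleukin family gene in both libraries, at 56.1 FPKM in the Cacnb4 library and 51.8 FPKM in the empty vector library, with a log2 ratio of 0.11. Il11ra1, the chain that recognises interleukin 11, was at 15.5 FPKM in the Cacnb4 library and 13.0 FPKM in the empty vector library. Its locus in the table also holds Ccl27, which was under 0.3 FPKM in both. Il27ra was at 0.904 FPKM in the Cacnb4 library and 1.19 FPKM in the empty vector library, the lowest log2 ratio of the 18 at -0.20. Il6r, the chain that recognises interleukin 6, was just under the threshold, at 0.427 FPKM in the Cacnb4 library and 0.669 FPKM in the empty vector library. Il11 itself was the gene nearest below the threshold, at 0.996 FPKM in the Cacnb4 library and 0.989 FPKM in the empty vector library.

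The 3 measured chains of the interleukin 17 receptor family differed by at most 1.21 times between the libraries. Il17ra, the chain shared by these receptors, was at 16.2 FPKM in the Cacnb4 library and 14.3 FPKM in the empty vector library. Il17rc, its partner for interleukin 17A, was at 13.9 FPKM in the Cacnb4 library and 11.5 FPKM in the empty vector library. Il17re, the chain for interleukin 17C, was at 11.2 FPKM in the Cacnb4 library and 11.1 FPKM in the empty vector library. Il17re and Il17rc are neighbours on chromosome 4, 0.807 kb apart in the table, and had log2 ratios of 0.02 and 0.25. Il17rb and Il17rd were under 0.5 FPKM in both libraries.

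Chains of the remaining groups were also close in the 2 libraries. Il10rb, shared by the receptors for interleukin 10, interleukin 22 and lambda interferons, was at 19.7 FPKM in the Cacnb4 library and 20.2 FPKM in the empty vector library. Il28ra, the chain that recognises lambda interferons, was at 1.60 FPKM in the Cacnb4 library and 1.89 FPKM in the empty vector library. Il4ra, the chain for interleukins 4 and 13, was at 7.51 FPKM in the Cacnb4 library and 6.59 FPKM in the empty vector library. Il3ra, the chain that recognises interleukin 3, was at 12.8 FPKM in the Cacnb4 library and 12.1 FPKM in the empty vector library. Summed over the 13 receptors, the level was 199 FPKM in the Cacnb4 library and 176 FPKM in the empty vector library.

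**Figure D3:**
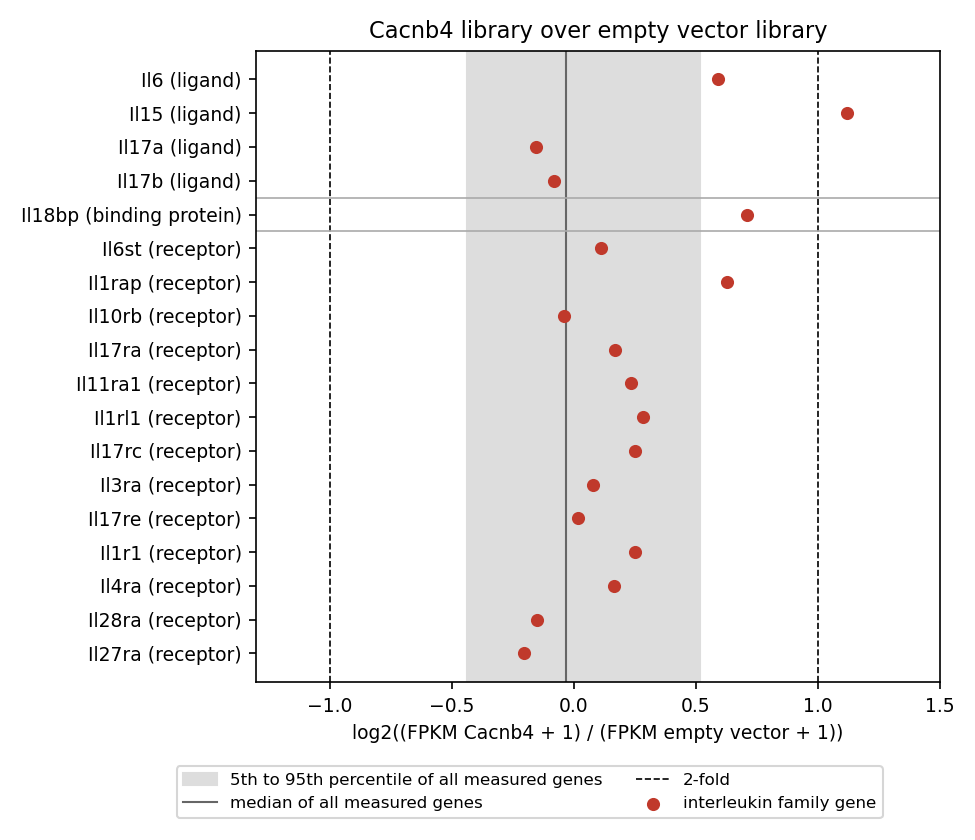
Log2 ratio of the Cacnb4 library over the empty vector library for each of the 18 measured genes, on the FPKM + 1 scale, with the 5th to 95th percentile of all 9539 measured genes in grey (-0.44 to 0.52) and 2-fold as dashed lines. Il15, Il18bp, Il1rap and Il6 lie to the right of the grey band, and the other 14 lie within it.

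Several chains were measured without the partner that they are known to need. Of 16 known chain pairs, 7 had both chains measured. The pairs and the genes named next were chosen for their roles after their values were seen. Both chains were measured for the receptors of interleukin 1 (Il1r1 and Il1rap), interleukin 33 (Il1rl1 and Il1rap), interleukin 11 (Il11ra1 and Il6st), interleukin 27 (Il27ra and Il6st), interleukin 17A (Il17ra and Il17rc), interleukin 17C (Il17ra and Il17re) and lambda interferons (Il28ra and Il10rb). For interleukin 4, Il4ra was measured, but Il13ra1 was at 0.0884 FPKM in the Cacnb4 library and 0.0648 FPKM in the empty vector library, and Il2rg was low as given above. For interleukin 10, Il10ra was at 0.0388 FPKM in the Cacnb4 library and 0.104 FPKM in the empty vector library. For interleukin 3, the shared beta chain Csf2rb was at 0.0867 FPKM in the Cacnb4 library and 0.000319 FPKM in the empty vector library. Il17rb, which forms the receptor for interleukin 25 with Il17ra, was at 0.0814 FPKM in the Cacnb4 library and 0.0434 FPKM in the empty vector library.

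The 55 symbols under 1 FPKM in both libraries were 24 receptors and 31 ligands, so 31 of the 35 ligand symbols in the table were not measured. Over the whole table, 7244 of 16783 symbols were not measured. Of the 55, 18 were under 0.1 FPKM in both libraries and 5 reached 0.5 FPKM in at least 1. The values were higher in the Cacnb4 library for 31 and lower for 24. Among the receptors alone they were higher for 12 and lower for 12. Values this low rest on few reads, and no share over all symbols under 1 FPKM stands beside these counts of higher and lower values. They are a description only. Of the T helper 2 cytokines, Il4 and Il13 were under 0.005 FPKM in both, Il5 was at 0.00267 FPKM in the Cacnb4 library and 0.362 FPKM in the empty vector library, and Il10 was at most 0.00100 FPKM. Il21 was listed at 0 in the Cacnb4 library, against 0.306 FPKM with the empty vector. Il9 was listed at 0 in the empty vector library. A listed 0 need not mean that a gene is silent, since Mcl1, a survival factor that most cells use, was also listed at 0 in both libraries. On either side of the threshold stood Il27ra, Il17b and Il17a just above it and Il11, Il23a and Il6r just below it. Il23a was at 0.697 FPKM in the Cacnb4 library and 0.746 FPKM in the empty vector library.

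**Figure D4:**
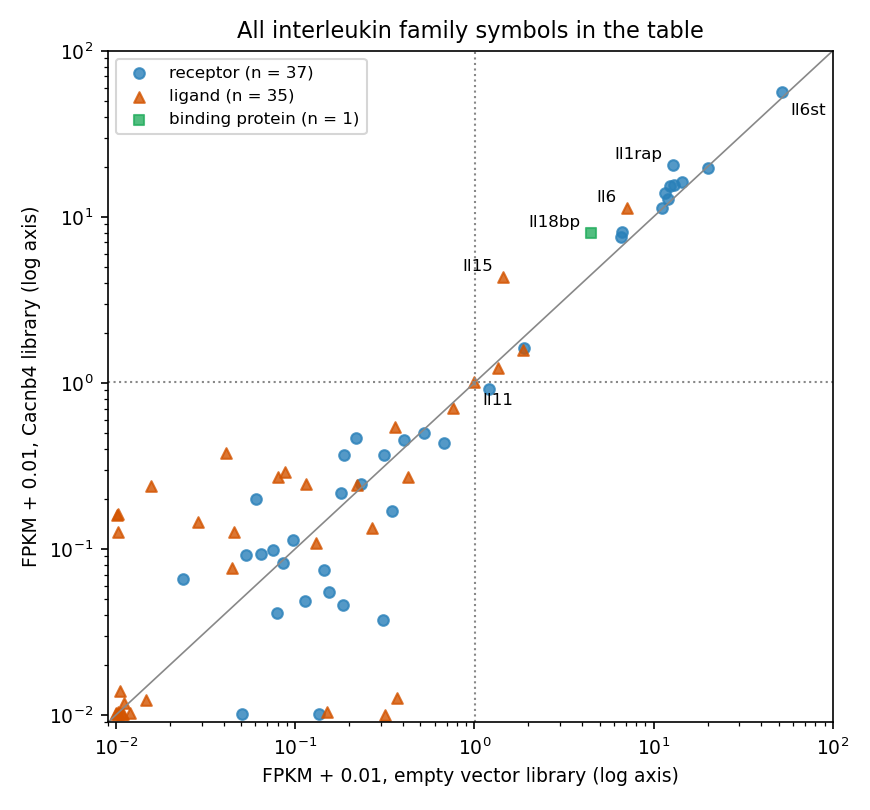
All 73 interleukin family symbols, with the level in the Cacnb4 library on the vertical axis and in the empty vector library on the horizontal axis, both as FPKM + 0.01 on log axes, receptors as circles, ligands as triangles and Il18bp as a square. The 18 measured genes lie along the diagonal with Il15 above it, and the 55 symbols under 1 FPKM in both libraries (dotted lines) scatter on both sides of it.

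Other genes through which interleukins act were taken from 6 lists and held 57 measured genes. Of these, 2 were at least 2-fold higher, Stat2 and Socs1, where 1.94% of all measured genes were, and 0 were at least 2-fold lower, where 1.08% of all measured genes were. The median log2 ratio of the 57 was 0.04. Among the 10 measured Janus kinases and Stat factors the median was 0.15, with 7 above 0, where 44.6% of all measured genes were. Stat2, a factor of the interferon response, was at 127 FPKM in the Cacnb4 library and 25.7 FPKM in the empty vector library. Jak2, the kinase paired with receptors such as that for interleukin 3, was at 21.6 FPKM in the Cacnb4 library and 15.3 FPKM in the empty vector library. The Stat factors downstream of interleukins 4, 6 and 15 had log2 ratios from -0.40 to 0.28, from Stat5a to Stat3.

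Of 14 measured brakes on this pathway, 1 was 2-fold higher, beside the 1.94% of all measured genes, and the median log2 ratio was 0.03. Socs1, an inhibitor of Janus kinases, was at 5.93 FPKM in the Cacnb4 library and 1.16 FPKM in the empty vector library. With 5 FPKM added in place of 1 it no longer reached 2-fold. Socs2 was at 7.81 FPKM in the Cacnb4 library and 5.34 FPKM in the empty vector library. Pias3, an inhibitor of Stat3, was at 9.94 FPKM in the Cacnb4 library and 12.3 FPKM in the empty vector library.

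Partners of Il6st that do not carry an interleukin name held 7 measured genes. Of these, 0 were at least 2-fold higher, where 1.94% of all measured genes were, and 0 at least 2-fold lower, where 1.08% were. The median log2 ratio of the 7 was 0.17. That median was 0.036 with the highest transcript, 0.54 with a minimum of 5 FPKM and 0.0032 with no minimum. The highest log2 ratio was that of Clcf1, a ligand of this group, at 6.94 FPKM in the Cacnb4 library and 4.05 FPKM in the empty vector library. Osmr, the receptor chain for oncostatin M, was at 11.7 FPKM in the Cacnb4 library and 7.70 FPKM in the empty vector library. Of the other haematopoietic cytokines and receptors, 2 were measured. Csf1, the macrophage growth factor, was at 91.5 FPKM in the Cacnb4 library and 76.6 FPKM in the empty vector library, and Kitlg, the ligand of Kit, was at 21.3 FPKM in the Cacnb4 library and 24.1 FPKM in the empty vector library.

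The relay and processing genes of interleukin 1 and interleukin 17 included 13 measured genes, with a median log2 ratio of 0.04. Of these, 0 were at least 2-fold higher, where 1.94% of all measured genes were, and 0 at least 2-fold lower, where 1.08% were. Myd88, the adaptor of interleukin 1 receptors, was at 12.5 FPKM in the Cacnb4 library and 9.77 FPKM in the empty vector library. Pycard, an adaptor of inflammasomes, was at 8.97 FPKM in the Cacnb4 library and 12.1 FPKM in the empty vector library. Nfkbiz, a nuclear factor induced by both cytokines, was at 1.08 FPKM in the Cacnb4 library and 0.719 FPKM in the empty vector library. Casp1, the protease that matures interleukin 1 beta and interleukin 18, was under 0.5 FPKM in both libraries.

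Adaptors and effectors of common gamma chain receptors included 11 measured genes, with a median log2 ratio of -0.01. Of these, 0 were at least 2-fold higher, where 1.94% of all measured genes were, and 0 at least 2-fold lower, where 1.08% were. The largest log2 ratio was that of Bcl2, a survival factor, at 2.23 FPKM in the Cacnb4 library and 0.709 FPKM in the empty vector library. It was under 2-fold with the added 1 FPKM, at 0.92, and reached 2-fold with 0.1 FPKM added. Myc was at 30.1 FPKM in the Cacnb4 library and 18.6 FPKM in the empty vector library, and the adaptor Gab2 was at 10.7 FPKM in the Cacnb4 library and 7.74 FPKM in the empty vector library.

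**Figure D5:**
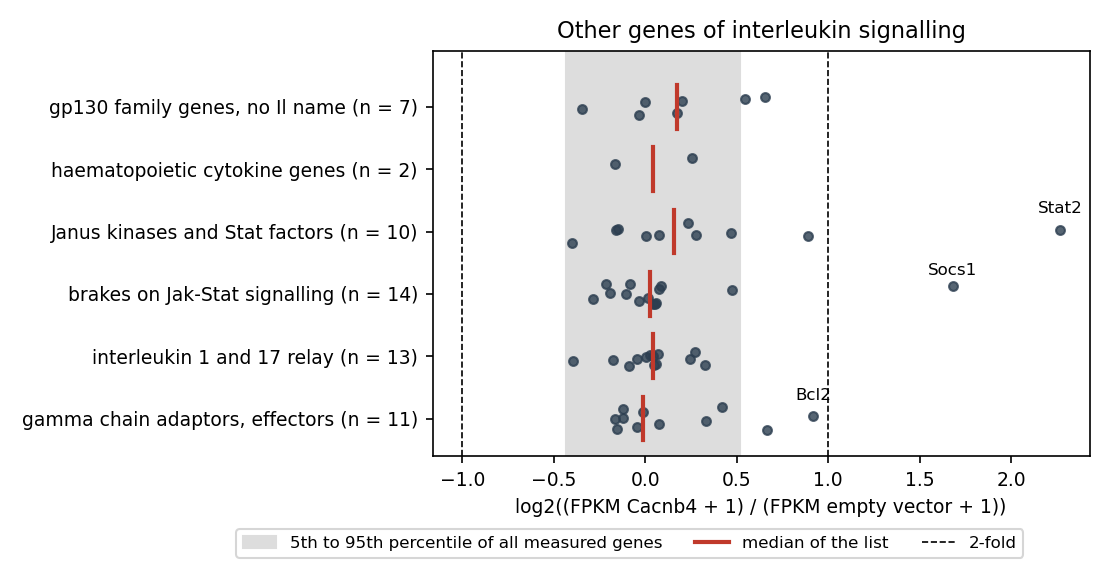
Log2 ratio of the Cacnb4 library over the empty vector library, on the FPKM + 1 scale, for the measured genes of 6 lists of interleukin signalling genes, 1 point per gene with the list's median in red, the 5th to 95th percentile of all measured genes in grey and 2-fold as dashed lines. Stat2 at 2.27 and Socs1 at 1.68 lie beyond 2-fold, and the medians lie between -0.01 and 0.17.

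Of the 78 interleukin family transcripts, 0 were marked as significant in the authors' deposited table, where 0.696% of all transcripts were marked. The lowest q-value among them was 0.624, for Il15. That mark rests on the reads of these 2 libraries and says nothing of the spread between cultures.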

How the data were processed

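RNA was sequenced in 1 library of H9c2 cells given a Cacnb4 plasmid and 1 given the empty vector, and groups were taken from the sample titles. Read counts per library were deposited, and per the file's footnote the 3' adaptor was removed and reads shorter than 10 bases were left out. The submitters' processing notes name TopHat 1.4.1 and build rn4. Which program made the levels is not given here, nor in the labels. The deposited table gives 1 value per transcript and library with no unit in its header. From their range and the table's layout, the authors' deposited values were read as FPKM, scaled by the authors to transcript length and library depth. Its log2 fold change, p-value and q-value columns are the authors' deposited results and were only copied.

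FPKM was summed per gene symbol over 16783 symbols, leaving out 13533 transcripts with no name and 17 with names in the form of a date. A minimum of 1 FPKM in at least 1 library and a pseudocount of 1 FPKM were used. Named were all measured interleukin family genes, and from each other list those at 2-fold and the 3 with the largest absolute log2 ratio, of which some are not reported here. Genes named for their role or for their place near the threshold were chosen after their values were seen. Receptors and ligands were told apart by the form of the symbol, except that the antagonists Il1rn and Il36rn were counted as ligands, for Il36rn against the form of its symbol. The genes and lists were chosen with earlier results of these data known. Alternatives were other pseudocounts and minimums, the transcript with the highest mean, a rescaling, and a stricter q. The sums and the size rule were tested on simulated data, with planted changes well over 2-fold in genes with a mean of 5 FPKM or more. That covers neither smaller changes nor genes at the level of Il15. Transcript lengths are not in the table, so the reads behind a gene are not known and no counting interval is given. Promoter windows are RefSeq's on GRCr8, and no coordinate was converted between builds. The tools were Python 3.11.15, numpy 2.4.6, pandas 2.3.3 and matplotlib 3.10.9.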

Additional observations from a re-analysis of the deposited data

Results flagged for a closer look

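An unnamed transcript lies between Il1rl1 and Il18r1, 1.91 kb beyond the end of Il1rl1 and 0.764 kb before the start of Il18r1, at chr9:39626916-39627150 in rn4. It was at 15.5 FPKM in the Cacnb4 library and 3.34 FPKM in the empty vector library, 4.64 times as much. Its locus is far shorter than a kilobase, so each FPKM rests on fewer reads than the reads per kilobase given above. It stands here because values summed by gene symbol do not use it. The authors' deposited table gave it a p-value of 0.0534 and a q-value of 0.671. It was the 1 unnamed transcript within 10 kb of a measured interleukin family gene. Whether it belongs to either neighbour was not tested.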

How the results depend on the processing

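No paired analysis was possible because each group held 1 library, and for the same reason no library could be left out. Il15 was the only 1 of the 18 measured genes at 2-fold with a pseudocount of 0.1 FPKM, with the highest transcript and with rescaling. With no minimum and the pseudocount of 1 FPKM, it was the only 1 of all 73 symbols. The count of ligands at 2-fold was 0 with a pseudocount of 5 FPKM and 0 with a minimum of 5 FPKM, which leaves out Il15. The median log2 ratio of the ligands was 0.59 with that minimum, where 1 ligand is left, and 0.000999 with no minimum. The median of the receptors was 0.032 with no minimum. The count over the lists of other interleukin signalling genes was 1 with a pseudocount of 5 FPKM, without Socs1, and 3 with a pseudocount of 0.1 FPKM, with Bcl2. Of 90 log2 ratios of single genes under other settings, 89 kept their direction and their side of 2-fold, and the other was Il15 with a pseudocount of 5 FPKM. Leaving out transcripts under 1 FPKM in both libraries was chosen after the data were seen and changed no call. Of the lists, the median of the gamma chain adaptors and effectors was 0.066 with no minimum and 0.024 after rescaling, that of the brakes on Janus kinase signalling was -0.0097 with no minimum and -0.0097 with the highest transcript, and that of the other haematopoietic genes was -0.044 with no minimum and 0.31 with the highest transcript. That of the partners of Il6st ranged from 0.0032 to 0.54. Without microRNA precursors, 1.56% of measured genes were 2-fold higher and 0.278% 2-fold lower. With 1 library per group, the spread between cultures is unknown, and genes near 1 FPKM rest on few reads.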
